A study of Mus musculus with 8 samples.

Results

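The 8 genes described here are the glucocorticoid receptor gene Nr3c1, the mineralocorticoid receptor gene Nr3c2, the corticosteroid-responsive genes Fkbp5, Sgk1, Per1, Tsc22d3 and Zbtb16, and Hsd11b1, which encodes an enzyme that makes active hormone inside cells. They were chosen by name and make up 8 of the 32285 gene rows of the RNA matrices. The tissue was the hippocampus of wild-type C57BL/6J male pups on postnatal day 21. Their dams, adult females given as 8 weeks old in the sample labels, ate a control folic acid (FA) diet of 2 mg/kg (MF) or an excess FA diet of 20 mg/kg (HF) for 2 weeks before mating and then through pregnancy and lactation. Each diet had 2 single-nucleus multiome libraries (MF1, MF2, HF1 and HF2), in which RNA (GEX) and open chromatin (ATAC) were read from the same nuclei. The libraries of a diet are described as biological replicates in the study, but the sources used here do not say how many pups or litters went into each, so p-values measure the spread between libraries, which may be partly technical. The pups themselves were exposed through the dam, and no hormone level was measured in these files.

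Corticosterone, the main glucocorticoid of the mouse, acts through both receptors, and the hippocampus is known for carrying both. The mineralocorticoid receptor binds corticosterone with high affinity and is largely occupied at rest, whereas the glucocorticoid receptor has a lower affinity and is engaged by daily hormone peaks and stress. Bound receptor enters the nucleus and binds an imperfect palindrome in DNA, the glucocorticoid response element. Fkbp5 encodes a co-chaperone that lowers the receptor's affinity for hormone, and so closes a negative feedback loop. Sgk1 encodes a kinase acting on ion channels and transporters. Per1 encodes a component of the circadian clock, Tsc22d3 encodes the anti-inflammatory protein GILZ, and Zbtb16 encodes the zinc finger transcription factor PLZF. The product of Hsd11b1 regenerates corticosterone from inert 11-dehydrocorticosterone.

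The response element was searched for as GNACA, any 3 bases and TGTNC, where N is any base. This pattern is its own reverse complement, so a search of 1 strand covers both. It was looked for in the central 300 bp of accessible regions over the 8 genes and 5 kb upstream. It was present in 7 of the 104 regions that had a peak in all 4 libraries (6.73%), against 0.974% of all 154764 such regions scanned. A match is a description of the letters and not of receptor binding. The windows around these matches are shown because the accessibility results below return to them. They are given 5′ to 3′ on the strand of the gene, from the GRCm38 (mm10) genome, with the element in capitals.
Fkbp5, intron, chr17:28513859-28513959 (minus strand): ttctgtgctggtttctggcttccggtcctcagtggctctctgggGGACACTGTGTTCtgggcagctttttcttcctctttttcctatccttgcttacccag
Fkbp5, upstream, chr17:28518136-28518236 (minus strand): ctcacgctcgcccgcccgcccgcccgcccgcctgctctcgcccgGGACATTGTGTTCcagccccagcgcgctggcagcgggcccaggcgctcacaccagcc
Per1, intron, chr11:69097033-69097133 (plus strand): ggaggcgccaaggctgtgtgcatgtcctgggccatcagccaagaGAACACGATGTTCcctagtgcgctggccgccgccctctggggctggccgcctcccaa
Zbtb16, intron, chr9:48723660-48723760 (minus strand): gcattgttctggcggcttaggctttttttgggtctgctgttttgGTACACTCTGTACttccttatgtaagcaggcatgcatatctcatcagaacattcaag
Zbtb16, intron, chr9:48736464-48736564 (minus strand): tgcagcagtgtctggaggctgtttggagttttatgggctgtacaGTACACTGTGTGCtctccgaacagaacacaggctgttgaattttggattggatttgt
Zbtb16, intron, chr9:48737558-48737658 (minus strand): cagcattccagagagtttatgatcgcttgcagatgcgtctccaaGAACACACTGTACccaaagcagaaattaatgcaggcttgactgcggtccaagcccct
Zbtb16, intron, chr9:48740229-48740329 (minus strand): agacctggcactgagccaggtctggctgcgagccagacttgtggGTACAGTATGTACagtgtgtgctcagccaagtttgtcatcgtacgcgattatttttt

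The last Zbtb16 region also held an overlapping second match. All 4 matching Zbtb16 regions lay within the gene, 95870 to 112463 bp from its start to the region's centre. The intronic Fkbp5 element was 3618 bp inside the gene and the upstream one 659 bp before its start. The Per1 element lay 1865 bp before the nearest start of a coding transcript. In the RefSeq promoter windows, which run from 250 bp before to 50 bp after a gene's start, the element was in 156 of 32851 (0.475%), and of the 6 members with such windows only Sgk1 had it, in 1 of its 6 windows. It lay 182 bp before a start of a coding Sgk1 transcript:
Sgk1, promoter, chr10:21993658-21993758 (plus strand): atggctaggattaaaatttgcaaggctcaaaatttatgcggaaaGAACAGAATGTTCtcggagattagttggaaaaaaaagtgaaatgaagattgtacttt

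After filtering, 11518 nuclei remained (2249 to 3473 per library), with 20151562 to 29243072 RNA molecules (unique molecular identifiers, UMIs) and 54182160 to 64146921 ATAC counts per library. Of these nuclei, 8544 were put into 11 classes by marker genes, and each class name below means cells like that type: CA1 and CA3 pyramidal neurons, mature (DG-M) and immature (DG-i) dentate granule neurons, inhibitory neurons (INH), astrocytes (AST), oligodendrocyte progenitors (OPC), differentiating oligodendrocyte precursors (COP), oligodendrocytes (ODC), microglia (MG) and vascular and leptomeningeal cells (VASC). A class held 20 to 541 nuclei per library, the fewest being VASC in MF1. The 8 genes played no part in the clustering. Each marker list was highest in its own class, apart from the CA1 list, which reached 2540 CPM in ODC and 1137 to 1457 CPM in CA1. In ODC 1 marker, Man1a, had 1624, 2045, 1048 and 2474 CPM in MF1, MF2, HF1 and HF2, respectively. The other 7 CA1 markers summed to 478 to 605 CPM in CA1, 45.2 to 74.8 CPM in ODC and at most 363 CPM in any other class, which was VASC in HF2. Any 2 libraries shared 13 to 27 cell barcodes. Levels are counts per 1000000 UMIs (CPM) of all nuclei of a class in a library, listed in the order MF1, MF2, HF1 and HF2, and a difference was called when it was 1.2-fold or more with an adjusted p (false discovery rate, FDR) under 0.05.

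Nr3c2 was highest in excitatory neurons, whereas Nr3c1 was highest in microglia and, among neurons, in CA1. Nr3c2 (chr8:76899442-77245012, plus strand) was highest in DG-M, at 1134, 1322, 1256 and 1435 CPM in the 4 libraries (1287 ± 126, SD, n = 4). CA3 had 952, 1082, 1183 and 1154.5 CPM, and CA1 had 946, 1012, 1171 and 1153.5 CPM. These 3 mature neuron classes overlapped, and neither DG-M against CA3 (log2 difference 0.12 ± 0.13, SE, edgeR FDR 0.50) nor CA3 against CA1 (0.01 ± 0.13, FDR 0.98) passed the test. DG-i followed at 706, 895, 954 and 1146 CPM, below CA1 by 0.69 ± 0.14 on the log2 scale (edgeR FDR 1.9e-05). Scaled to total UMIs only, that difference was 0.22 ± 0.13 and was not called (edgeR FDR 0.14). VASC, with 363, 574, 682 and 635 CPM, lay near INH with 473 ± 55.9 CPM, and the libraries of these classes overlapped (VASC minus INH -0.10 ± 0.16 on the log2 scale, edgeR FDR 0.70). VASC nuclei also carried 1870, 1878, 1647 and 2428 CPM of excitatory neuron markers and 1889 to 2935 CPM of astrocyte markers, beside 4810, 3325, 4369 and 1996 CPM of their own, and the part of these in the level was not tested. With likely doublets left out, the VASC sums fell from 55090 to 24920 UMIs in MF1 and from 153369 to 71828 in MF2, and VASC against INH was again not called (edgeR FDR 0.89). AST had 361 ± 31.2 CPM, OPC 164 ± 41.1 CPM, COP 126 ± 54.4 CPM and MG 88.5 ± 14.1 CPM. COP was called above MG (0.78 ± 0.24 on the log2 scale, edgeR FDR 0.0041), but not without likely doublets (-0.12 ± 0.37, edgeR FDR 0.84), MF1 (edgeR FDR 0.051) or HF2 (edgeR FDR 0.056). OPC against COP was not called (edgeR FDR 0.22), but without likely doublets OPC was higher by 1.02 ± 0.32 (edgeR FDR 0.011). The lowest class was ODC, at 34.2, 32.9, 44.4 and 58.4 CPM, so that the mineralocorticoid receptor transcript differed widely between mature neurons and myelinating cells in every library.

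Nr3c1 (chr18:39410545-39519421, minus strand) was highest in MG, at 345, 313, 349 and 368 CPM (344 ± 22.9, SD, n = 4). AST followed at 209, 203, 238 and 184 CPM, and every MG library lay above every AST library (0.32 ± 0.12 on the log2 scale, edgeR FDR 0.019). The FDR of that small difference rose to 0.18 without MF1 and 0.072 without HF2. OPC had 192 ± 17.6 CPM and ODC 176 ± 23.1 CPM, and these neighbours did not differ beyond their spread. Among neurons CA1 stood highest with 136, 140.1, 149 and 129 CPM, against 82.5 ± 4.03 CPM in DG-M, 71.5 ± 16.2 CPM in INH and 49.7 ± 9.88 CPM in CA3. CA3 and CA1 therefore had like levels of the mineralocorticoid receptor transcript but did not overlap for the glucocorticoid receptor transcript. DG-i had only 15.2, 16.1, 9.70 and 10.9 CPM, below CA3 by 2.41 ± 0.22 on the log2 scale (edgeR FDR 7e-15). VASC averaged 208 ± 91.7 CPM, and 1 library, MF1 with its 20 nuclei, set its upper end at 345 CPM.

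**Figure D1:**
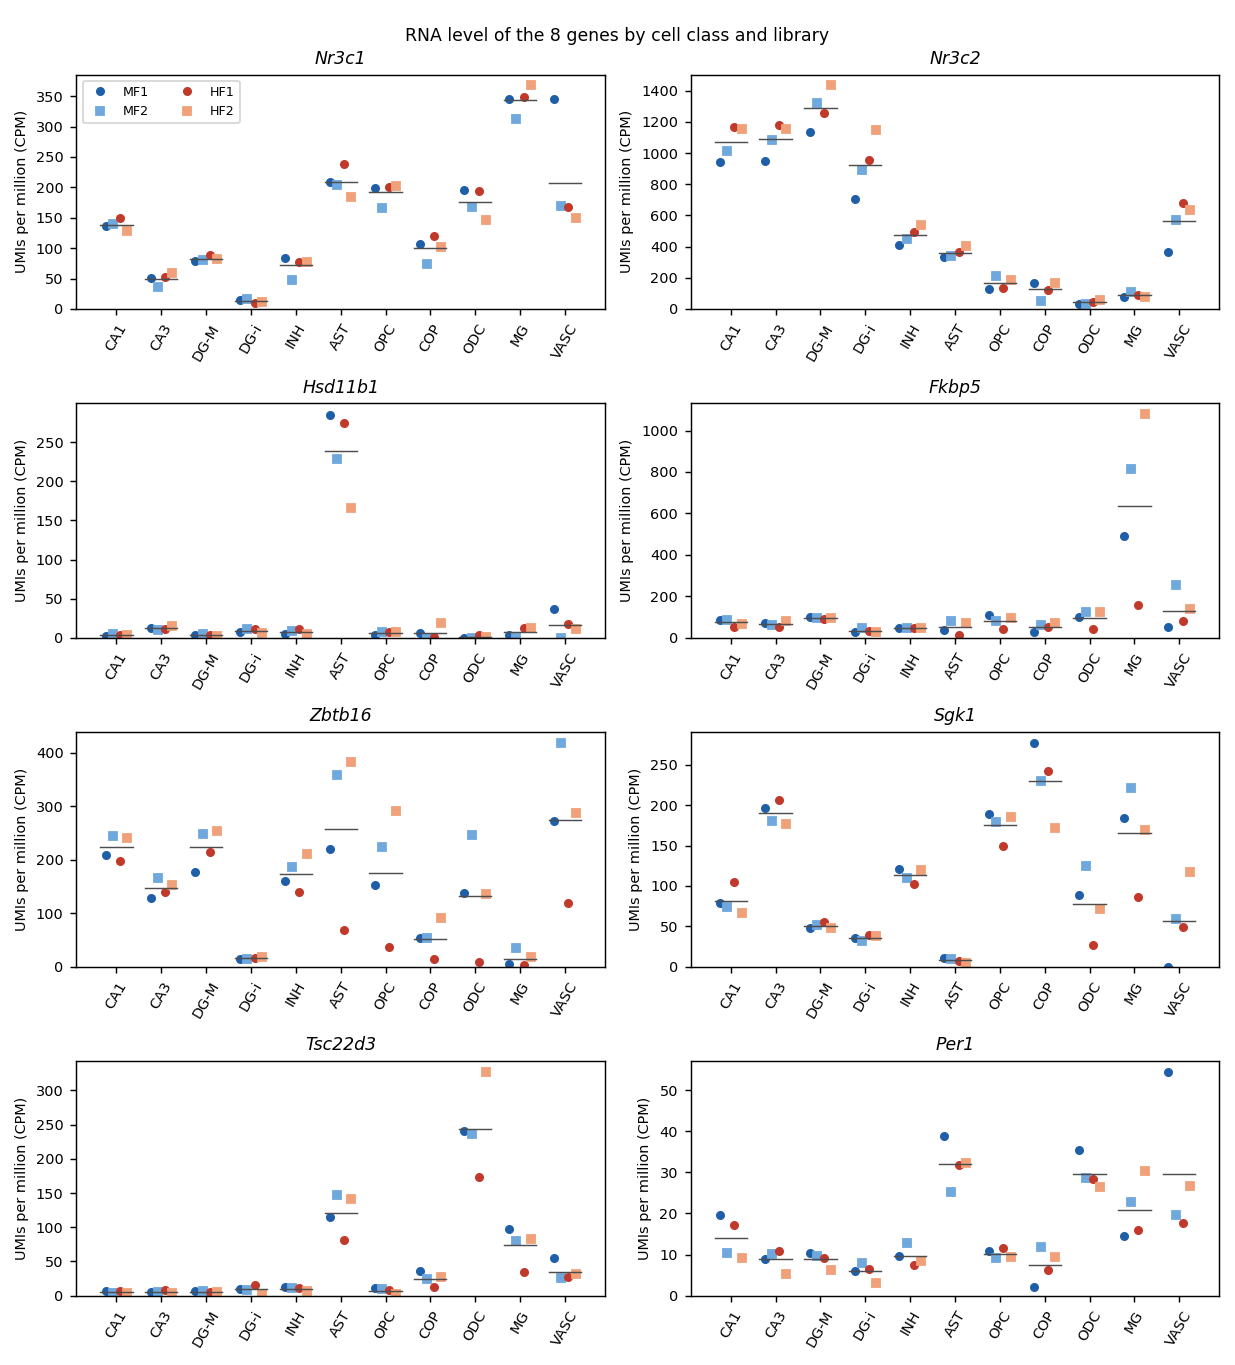
Level of each of the 8 genes (linear axis, CPM) in the 11 cell classes, with a point for each of the 4 libraries and a bar at their mean. Nr3c2 is highest in the 4 excitatory neuron classes, with VASC and INH next, Nr3c1 and Fkbp5 in MG, Tsc22d3 in ODC and Hsd11b1 in AST. Zbtb16 is spread over neuronal, glial and vascular classes and is low in DG-i and MG.

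The balance of the receptors was taken as log2 of Nr3c2 over Nr3c1 CPM in each library. It averaged 6.17 ± 0.58 in DG-i, 4.48 ± 0.31 in CA3, 3.96 ± 0.15 in DG-M, 2.95 ± 0.16 in CA1 and 2.75 ± 0.39 in INH (SD, n = 4). No neuronal class in any library fell below 2.29. In ODC the 4 libraries gave -2.51, -2.36, -2.12 and -1.33, and in MG they gave -2.14, -1.53, -1.96 and -2.24. AST lay between, at 0.67, 0.75, 0.63 and 1.13. OPC (mean -0.26 ± 0.47) and COP (0.20 ± 0.59) spanned zero. When likely doublets were removed, OPC moved to -0.59 ± 0.56, with libraries from -1.31 to -0.085. COP moved to -0.84 ± 1.27 and VASC from 1.48 ± 0.95 to 0.62 ± 1.83, so the balance in these classes was not settled. Nr3c2 spans 345.571 kb and Nr3c1 108.877 kb, and divided by length Nr3c2 in DG-M (3.72 CPM per kb) and Nr3c1 in MG (3.16 CPM per kb) had similar levels. The ratio above is not scaled to length, so its zero does not mark equal levels per kb.

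**Figure D2:**
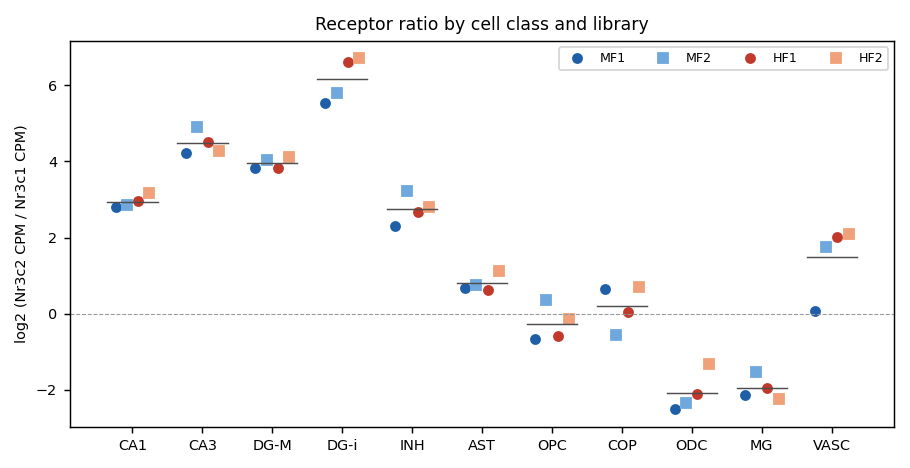
Log2 of Nr3c2 over Nr3c1 CPM in each class, with a point per library and a bar at the mean of 4. All libraries of the neuronal classes shown lie at 2.29 or above and all ODC and MG libraries at -1.33 or below. The ratio is not scaled to gene length.

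Hsd11b1 (chr1:193221634-193264075, minus strand) was an astrocyte transcript in these nuclei, with 285, 228, 274 and 166 CPM in AST (238 ± 53.9, SD, n = 4). The next class, VASC, had 36.3, 0, 17.7 and 10.7 CPM, and AST was higher by 4.53 ± 0.36 on the log2 scale (edgeR FDR 7.9e-17). CA3 had 12.4 ± 2.52 CPM and DG-i 9.11 ± 2.85 CPM, and their libraries overlapped. The fit put CA3 higher by 0.92 ± 0.36 on the log2 scale (edgeR FDR 0.030), but the call was lost when scaled to total UMIs only (edgeR FDR 0.27), without MF1 (edgeR FDR 0.16) and without HF2 (edgeR FDR 0.18). CA1 had 3.46 ± 1.04 CPM and ODC 1.23 ± 1.78 CPM. Per kb of gene Hsd11b1 had the highest level of the 8 members in their top classes, 5.62 CPM per kb in AST. The gene overlaps 4930570N18Rik and Lamb3 on the other strand and Gm38118 on its own. Counts near those overlaps cannot be assigned with certainty. The same holds for Nr3c2 and Fkbp5, which also overlap annotated genes. On their own strand these are Gm23260 for Nr3c2, and AC154912.5 and AC154912.3 for Fkbp5.

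Fkbp5 (chr17:28399094-28517527, minus strand) was highest in MG, where it also varied widely between libraries. MG had 493, 813, 160.3 and 1077 CPM (636 ± 397, SD, n = 4), with HF1 well under the other 3 libraries. Even HF1 was above the mean of the next class, VASC (132 ± 89.0 CPM), though not above its highest library, and the fitted difference was 2.01 ± 0.31 on the log2 scale (edgeR FDR 1e-07). Neurons were much steadier. DG-M had 100.8, 94.5, 91.9 and 94.1 CPM, and INH had 45.6, 46.3, 47.6 and 49.2 CPM. From VASC down to INH, 8 successive neighbours did not differ beyond their spread.

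Zbtb16 (chr9:48654297-48836222, minus strand) was at like levels in VASC, AST, CA1 and DG-M, and its levels in OPC and ODC are given below. VASC had 272, 417, 119.5 and 288 CPM, AST 220.3, 359, 69.4 and 383 CPM, and CA1 209.7, 245, 198 and 240.1 CPM. DG-M had 223 ± 35.4 CPM, and no neighbours among these 4 classes passed the test. VASC was highest by mean CPM, but the fit that allows for composition put it 0.25 ± 0.35 below AST on the log2 scale (edgeR FDR 0.64). The 2 lowest classes were DG-i with 15.9 ± 2.11 CPM and MG with 5.47, 34.1, 3.21 and 17.3 CPM, from 3, 6, 1 and 4 UMIs, and these classes did not differ (edgeR FDR 0.66). Mature and immature granule neurons did not overlap for Zbtb16 in any library.

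Sgk1 (chr10:21882184-21999903, plus strand) was highest in COP, at 276, 230.4, 242 and 172 CPM, and in CA3, at 197, 179.9, 207 and 177 CPM. The libraries of these classes overlapped (log2 difference -0.05 ± 0.16, edgeR FDR 0.83). CA3 exceeded CA1, which had 81.1 ± 16.8 CPM, with no overlap of libraries, the opposite order to Nr3c1. OPC had 176 ± 18.1 CPM, MG 165 ± 57.1 CPM, INH 113 ± 8.72 CPM and DG-M 50.4 ± 3.71 CPM. AST was lowest with 11.1, 9.30, 6.64 and 4.47 CPM, below DG-i by 2.01 ± 0.44 on the log2 scale (edgeR FDR 8.5e-05). In AST the other members ranged from 32.1 CPM (Per1) to 361 CPM (Nr3c2) on average.

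Tsc22d3 (chrX:140539528-140600659, minus strand) was graded across the glia. ODC had 241, 236, 173 and 326 CPM, AST 115, 147, 81.9 and 141 CPM, and MG 96.7, 79.6, 35.3 and 82.2 CPM. ODC exceeded AST by 1.13 ± 0.14 (edgeR FDR 1.3e-10), AST exceeded MG by 1.04 ± 0.21 (edgeR FDR 3e-05) and MG exceeded VASC by 1.24 ± 0.43 (edgeR FDR 0.014), all on the log2 scale. The 5 neuronal classes had 5.22 to 10.4 CPM on average. OPC, with 7.51 ± 3.70 CPM, and COP, with 24.9 ± 9.57 CPM, also lay far below ODC. Per1 (chr11:69095217-69109960, plus strand) was the least abundant member over all nuclei (12.9 CPM on average) but is also the shortest gene. It had 38.9, 25.2, 31.7 and 32.4 CPM in AST and 35.5, 28.7, 28.3 and 26.3 CPM in ODC, which did not differ (0.01 ± 0.23 on the log2 scale, edgeR FDR 1.0). CA1 had 14.1 ± 5.15 CPM and no other neuronal class more than 9.60 CPM. On a per kb scale AST held 2.17 CPM per kb of Per1, against 1.98 of Tsc22d3.

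Over the 55 pairs of classes, the number called was 48 for Nr3c2, 45 for Nr3c1, 44 for Sgk1, 40 for Tsc22d3, 34 for Zbtb16, 31 for Fkbp5, 30 for Per1 and 23 for Hsd11b1. Over all 12882 genes tested, 46.1% of tests were called, from 22.5% (CA1 against CA3) to 63.7% (CA1 against MG) in single pairs. Of the 23 pairs called for Hsd11b1, 10 were those of AST with every other class.

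By the Pearson correlation r of log2(CPM + 1) over 44 values (11 classes in 4 libraries, which share depth and class sizes), the genes most like each member were ranked among 11391. Nr3c2 was closest to Celf2 (r = 0.96), Grin2b (0.95) and Kalrn (0.95). Nr3c1 was closest to Wwc2 (r = 0.90), Itgav (0.81) and Klf6 (0.81), and Hsd11b1 to Ntsr2, Prdm16 and Sfxn5 (each 0.86). Tsc22d3 was closest to Neat1 (0.87), Ppfibp2 (0.87) and Myo1e (0.86), and Myo1e (0.74) was also near Per1, after Bag3 (0.76) and before Rhot1 (0.73). Fkbp5 ran with Arhgap17 (0.82), Wdr44 (0.79) and Spint1 (0.78), and Sgk1 with Gm43462 (0.83), Coro1c (0.78) and Lonrf1 (0.77). Zbtb16 was closest to Nebl (0.79), Adamts20 (0.73) and Npas2 (0.71). The 2 receptors were themselves opposed across these values (r = -0.54), and Nr3c2 was also opposed to Tsc22d3 (r = -0.70), whereas Tsc22d3 and Per1 went together (r = 0.72).

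Other genes of the pathway were read from lists. Of 30 other glucocorticoid-induced genes, 22 could be tested between classes, 12 of those 22 were highest in AST, where 10.3% of all 12882 genes tested were, and 17 of the 22 had a called difference between their highest and next class. Over all genes 42.9% had such a difference. The largest were Dio2, the deiodinase that activates thyroid hormone, at 128 ± 45.0 CPM in AST (3.50 ± 0.32 above OPC on the log2 scale, edgeR FDR 8.5e-15), and Hif3a, a hypoxia-inducible factor subunit, at 136 ± 36.4 CPM in AST (3.31 ± 0.41 above VASC, edgeR FDR 3.1e-10). Among 9 receptor chaperones 6 were highest in MG, where 29.2% of all genes were, but only Hspa4 (166 ± 44.3 CPM) and Hspa8 (467 ± 46.4 CPM) passed the test against the next class. Both calls were lost without some single libraries, MF1 or HF1 for Hspa4 (0.45 and 0.56 on the log2 scale) and MF1, MF2 or HF2 for Hspa8 (0.23 to 0.27). Of 11 coregulators 7 passed, led by the corepressor gene Nrip1 in MG (646 ± 171 CPM against 123 in CA1) and the coactivator gene Ppargc1a in AST (275 ± 20.6 CPM against 135 in INH). Of 9 ligand-handling genes, 4 were tested and all 4 passed. Abcb1a, an efflux transporter of the blood-brain barrier that carries steroids, was highest in VASC (123 ± 97.5 CPM), and Srd5a1, which reduces steroids at the 5-alpha position, was highest in ODC (27.5 ± 8.81 CPM). Crhbp, whose product binds corticotropin-releasing hormone, was highest in INH (30.5 ± 7.70 CPM), as was Esrrg, an orphan receptor gene (308 ± 24.7 CPM).

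Chromatin over the 8 genes was read as ATAC CPM in regions merged over libraries. The start region of a member is the one, among regions with a peak in all 4 libraries, that holds the most starts of coding transcripts, and where several hold equally many the one nearest the gene's 5′ end. Such ties arose for Nr3c1 and Tsc22d3, with 3 regions each, and Hsd11b1, with 2. Accessibility of the start region did not follow the RNA alike in all members. Across the 11 class means, r between log2(CPM + 1) of the 2 readouts was 0.85 for Tsc22d3, 0.74 for Zbtb16, 0.62 for Nr3c1, 0.50 for Fkbp5, 0.44 for Per1 and 0.23 for Sgk1. It was -0.15 for Hsd11b1 and -0.60 for Nr3c2. In single libraries r ran from 0.35 to 0.77 for Tsc22d3, whose start region averaged at most 5.90 CPM in any class. The range was 0.52 to 0.79 for Zbtb16, 0.43 to 0.68 for Nr3c1 and 0.25 to 0.62 for Fkbp5. For Per1 it was -0.17 to 0.54, for Sgk1 -0.033 to 0.35, for Hsd11b1 -0.26 to 0.13 and for Nr3c2 -0.62 to -0.52. The tied regions that were not chosen gave 0.77 and 0.82 for Nr3c1, 0.738 and 0.815 for Tsc22d3 and 0.35 for Hsd11b1, so that the value of Hsd11b1 turned on the choice of region. With all regions over the gene and 5 kb upstream summed, r was between 0.70 and 0.97 for 7 members and 0.36 for Hsd11b1. These correlations describe class means that share nuclei and depth.

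For Nr3c2 the start and the RNA parted. The start region of Nr3c2 (chr8:76901664-76902590) had 81.3, 65.5, 103 and 78.3 CPM in MG and 25.4, 20.2, 20.9 and 27.8 CPM in DG-i, so the class with the most accessible start was among those with the least Nr3c2 RNA. A high MG value was not particular to Nr3c2. MG also had the highest mean at the start regions of Nr3c1 (58.4 CPM), Fkbp5 (93.2 CPM), Sgk1 (95.4 CPM) and Tsc22d3 (5.90 CPM). It did not for Per1, Zbtb16 or Hsd11b1. For Tsc22d3 this turned on the choice among tied regions. The others were highest in AST (33.1 CPM, 26.1 in MG) and in ODC (6.95 CPM, 0.68 in MG). Of the other tied Nr3c1 regions, one was highest in MG (93.1 CPM) and one in VASC (5.96 CPM, 3.05 in MG). The share of all start regions that were highest in MG was not taken. Hsd11b1 had different patterns over its 2 regions with a coding start. The one centred 208 bp inside the gene had 0.50, 0.52, 0.91 and 1.34 CPM in AST, where its RNA was highest, and 23.9, 19.6, 19.4 and 19.0 CPM in DG-i. The other, at chr1:193241987-193242909 and centred 21628 bp inside the gene, was open in AST with 24.4, 27.5, 22.6 and 21.4 CPM, and also in DG-i (31.9 CPM on average), DG-M (25.9), CA3 (25.4) and VASC (22.1). A further region chosen after its values were seen, chr1:193238152-193239091, had 30.6 CPM on average in AST, 17.1 in OPC and no more than 5.23 in any other class. Between classes, the start region was called in 43 of 55 pairs for Sgk1 and Zbtb16, 40 for both receptors and Fkbp5, 38 for Hsd11b1, 26 for Per1 and 11 for Tsc22d3 (24 and 30 for its other tied regions), where 47.8% of all region tests were called.

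Regions holding the response element differed in where they were open. The intronic Fkbp5 region (chr17:28513580-28514453) had 30.6, 43.2, 15.9 and 33.6 CPM in MG and at most 10.2 CPM on average in any other class, the same class in which Fkbp5 RNA was highest. The upstream Fkbp5 region (chr17:28517700-28518558) was open in all classes, from 15.4 CPM in DG-i to 71.0 CPM in MG. The Per1 region (chr11:69096709-69097590) had 67.7, 73.3, 76.9 and 78.9 CPM in AST and 73.6 CPM on average in MG, against 11.6 to 23.9 CPM in the neuronal classes. Of the 4 Zbtb16 regions, 3 were lowest in MG, with averages of 0.20, 0.98 and 6.13 CPM. The one at chr9:48723291-48724229 was not, with 11.4, 23.8, 3.18 and 17.1 CPM in MG and 1.53 CPM on average in ODC. The one at chr9:48736017-48736790 was most open in CA1 (35.8 ± 1.21 CPM), the one at chr9:48737232-48738112 in VASC (75.4 ± 33.7 CPM) and then AST (51.7 ± 8.48 CPM), and the one at chr9:48739892-48740814 in VASC (46.9 CPM on average), ODC (44.1 CPM) and DG-i (41.5 ± 7.33 CPM). The one at chr9:48723291-48724229 was most open in VASC (52.9 ± 5.91 CPM) and CA1 (31.2 ± 3.66 CPM).

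**Figure D3:**
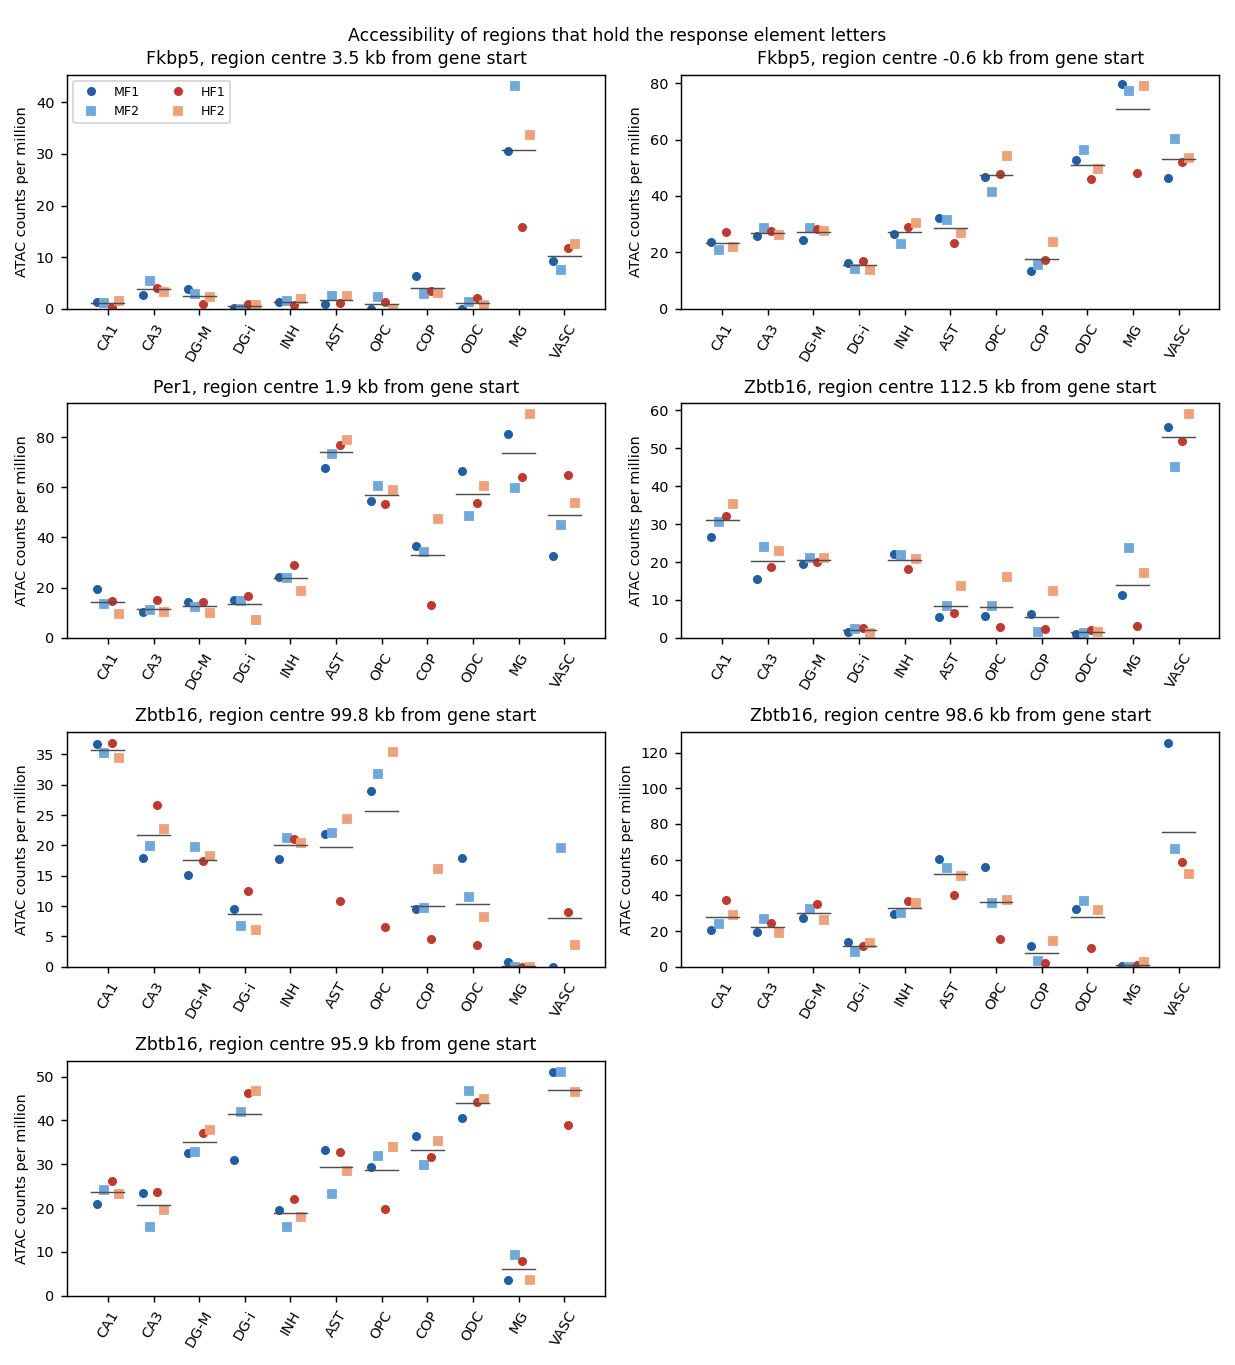
ATAC level (CPM) of the 7 regions that hold the response element, by class, with a point per library and a bar at the mean of 4. The intronic Fkbp5 region is open in MG, the Per1 region in glia, and 3 of the 4 Zbtb16 regions are lowest in MG.

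Whether the maternal diet moved the 8 genes was tested in all nuclei, all excitatory neurons (EXC) and the 11 classes. Enough counts were present for 87 of 104 tests, and none was called by edgeR (lowest FDR 0.9985), with 3 at an unadjusted p under 0.05. Those 3 were Fkbp5 in CA1 (HF minus MF -0.45 ± 0.19 on the log2 scale), Sgk1 in ODC (-1.08 ± 0.40) and Sgk1 in MG (-0.67 ± 0.32). Among all genes the share called was 0.0% in all nuclei, EXC and 8 of the classes, 0.0534% in OPC, 0.0364% in MG and 0.0144% in COP. In all nuclei the members differed between the diets by -0.16 ± 0.18 (Per1) to 0.27 ± 0.25 (Hsd11b1) on the log2 scale, with Nr3c1 at 0.10 ± 0.16 and Nr3c2 at 0.23 ± 0.27. Nr3c2 was higher in both HF than in both MF libraries in 7 of the 11 classes, namely CA1, CA3, DG-i, INH, AST, ODC and VASC. Of all genes with at least 20 CPM, 7.35%, 8.4%, 10.1%, 9.49%, 12.8%, 11.4% and 12.8% did so in these classes, and 5.54% in DG-M, 12.2% in OPC, 12.9% in COP and 14.0% in MG. The Nr3c2 values of the classes come from the same 4 libraries, no class passed the test, and MF1 was the lowest library in DG-M, CA1, CA3, DG-i, INH, AST and VASC. No diet by class interaction passed for any member (edgeR, 0 of 8 and 0.0% of 12882 genes, 444 genes at an unadjusted p under 0.05, Sgk1 the only member among them). With doublets left out, 78 of 12936 genes passed and no member did, the lowest FDR being that of Nr3c2 (edgeR FDR 0.080). None of the 6 pathway lists had a gene called between diets in any class, including 29 glucocorticoid-induced genes tested.

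**Figure D4:**
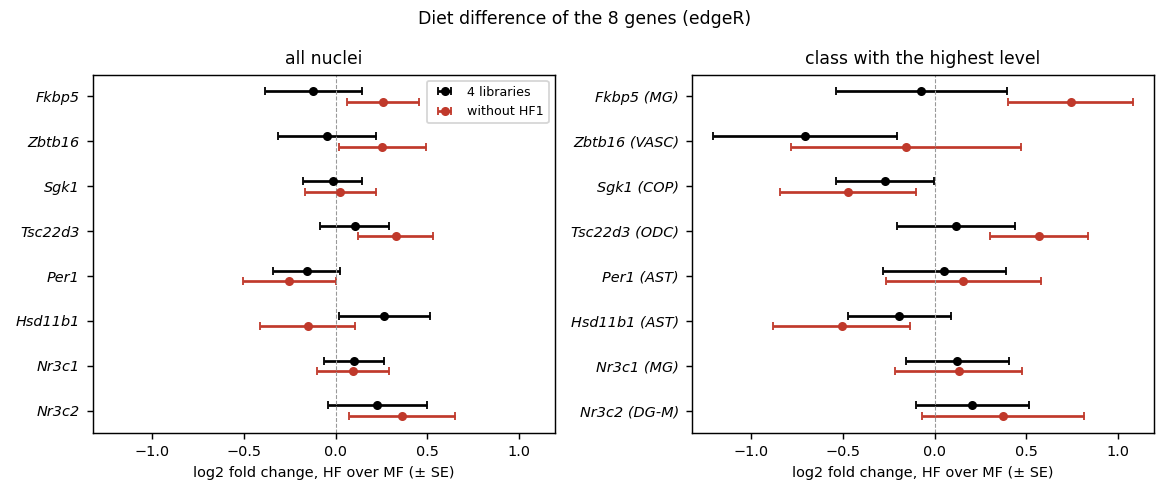
Fitted HF minus MF change (log2 scale, bars are SE) of each member in all nuclei and in its highest class, from all 4 libraries (black) and without HF1 (red). No change from the 4 libraries passed the test, and several glial values move toward higher HF levels without HF1.

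A difference between the 2 HF libraries was larger than the difference between the diets for several glial values, and it was noticed only after the values were seen. HF1 was lowest for Fkbp5 in AST (37.0, 82.3, 11.8 and 72.6 CPM), in ODC (103, 123, 43.4 and 123 CPM), in OPC (109, 82.8, 44.01 and 97.5 CPM) and, as above, in MG. It was lowest for Zbtb16 in AST, in OPC (152, 223, 36.4 and 290.2 CPM) and in ODC (137, 246, 8.50 and 136 CPM), for Sgk1 in ODC (88.7, 125, 27.4 and 71.0 CPM) and MG (184, 222, 86.6 and 169 CPM), and for Tsc22d3 in MG, as above, and COP (35.4, 23.6, 12.5 and 27.9 CPM). The mean of the other libraries was 20.4 times the HF1 level for Zbtb16 in ODC, 6.10 times in OPC and 4.62 times in AST, and 5.42 times for Fkbp5 in AST and 4.96 times in MG. COP had the same pattern for Zbtb16 (53.1, 53.2, 14.1 and 90.8 CPM) but not for Fkbp5 (26.5, 62.0, 51.6 and 69.8 CPM) or Sgk1, and Sgk1 in AST was lowest in HF2. In neurons the gaps were smaller. HF1 was lowest for Fkbp5 in CA1 (87.4, 87.4, 54.5 and 67.9 CPM) and CA3 (73.1, 63.2, 53.1 and 79.0 CPM), where the mean of the other libraries was 1.48 and 1.35 times its level, and highest for Sgk1 in CA1 (79.4, 73.4, 105 and 66.5 CPM). Nr3c1 and Nr3c2 were not lowest in HF1 in AST, ODC or MG. MF1 in turn lay below MF2 for Fkbp5 in AST, ODC and MG, Zbtb16 in AST, OPC and ODC, and Sgk1 in ODC and MG. MF1 lay above MF2 for Fkbp5 in OPC and for Tsc22d3 in MG and COP. The fit with a replicate block is given in a closing section. Without HF2, leaving HF1 alone against both MF libraries and taking it to vary as they do, 7 diet differences were called, all lower in HF: Fkbp5 in AST (-2.42 ± 0.44), MG (-1.99 ± 0.40) and ODC (-1.40 ± 0.35), Zbtb16 in AST (-2.12 ± 0.40), OPC (-2.40 ± 0.39) and ODC (-4.50 ± 0.47), and Sgk1 in ODC (-1.98 ± 0.38), on the log2 scale by edgeR. In that setting 0.0624% of all genes were called in AST, 0.0801% in OPC, 0.205% in ODC and 0.685% in MG. Zbtb16 in ODC was also called by edgeR without MF1 (-1.77 ± 0.39, 0.0335% of all genes) and with no low-count filter (-1.33 ± 0.31, 0.0515% of all genes). Without HF1 no member was called in any class.

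Falling to under the next lowest library by 2-fold or more in HF1 was uncommon among all genes of at least 20 CPM. It was met by 12 of 6917 genes in AST (0.1735%), 11 of 6214 in ODC (0.177%), 27 of 7288 in OPC (0.3705%) and 91 of 7392 in MG (1.231%), and by 0 to 5 genes in the neuron classes, none of them a member. Members met it in 2 of 7 cases in AST (Fkbp5 and Zbtb16), 3 of 7 in ODC (Fkbp5, Sgk1 and Zbtb16), 1 of 5 in OPC (Zbtb16) and 2 of 6 in MG (Fkbp5 and Tsc22d3). In COP and VASC it was met by Zbtb16 alone, 1 of 6 and 1 of 7 members, against 0.3534% and 2.651% of all genes. Of the other glucocorticoid-induced genes, 14 of 19 were lowest in HF1 in AST, where 17.48% of all genes were, 7 of 13 in MG (25.23%), 4 of 10 in OPC (21.78%) and 4 of 9 in ODC (20.2%). In COP only 2 of 10 were (18.45%), and in VASC 5 of 16 (19.9%), where 9 of 16 were lowest in HF2. Receptor chaperones were instead mostly lowest in HF2, 8 of 8 in all nuclei (41.8% of all genes) and 7 of 7 in AST (35.02%). So were 7 of 8 in DG-M (41.58%) and 7 of 8 in OPC (32.2%). Fewer were in CA1 (3 of 7, 37.87%), ODC (4 of 7, 34.29%) and VASC (3 of 7, 30.1%). Of the receptor coregulators, 7 of 11 were lowest in HF1 in all nuclei (23.25%), 8 of 11 in DG-M (20.58%) and 6 of 11 in CA1 (25.9%). In AST 4 of 11 were (17.48%), and in ODC 3 of 10 (20.2%). The 2-fold fall in HF1 was met by 1 of 19 glucocorticoid-induced genes in AST, 1 of 10 in OPC, 1 of 13 in MG and 0 of 9 in ODC. The summed level of the glucocorticoid-induced genes in AST was 5452, 5434, 4385 and 5271 CPM. In OPC it was 1039, 913, 989 and 1038 CPM, and in ODC 730, 587, 668 and 533 CPM. HF1 had the highest sum in CA1 (565 CPM), CA3 (543 CPM), DG-i (701 CPM) and INH (578 CPM).

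The share of nuclei with a molecule, taken from the same counts as the levels, pointed the same way once depth was evened out. Each nucleus of at least 1000 UMIs was thinned to 1000 UMIs. Nuclei with fewer were left out of the thinned shares but not of the unthinned ones. Zbtb16 was then found in 18.7%, 28.0%, 7.82% and 30.6% of AST nuclei (49.1%, 60.1%, 14.7% and 57.9% unthinned, median depth 2524 to 2896 UMIs). In the classes with little Zbtb16 the thinned share was 0.588% to 3.03% in MG and 0% to 2.53% in DG-i. Fkbp5 was found in 37.9%, 52.5%, 14.7% and 57.9% of thinned MG nuclei (58.8%, 66.4%, 20.3% and 77.6% unthinned, median depth 1529 to 2086 UMIs). Astrocyte markers summed to 19910 to 22100 CPM in AST, and microglia markers were at 28330, 22550, 24200 and 20930 CPM in MG. In VASC its own markers spread more widely, from 1996 to 4810 CPM. Other values did move with HF1, since 7 choroid plexus markers summed to 4058 CPM in MG of HF1 and 22.8 to 40.1 CPM in MG of the others, and to 327 CPM in AST against 35.8 to 43.8 CPM, but to 1577 CPM in ODC against 1497 to 1858 CPM. They were highest in HF1 in neurons too, at 58.5 to 155 CPM against 12.6 to 67.7 CPM, and in OPC, COP and VASC. Oligodendrocyte markers, looked at after their values were seen, were also highest in HF1 outside COP and ODC. They summed to 617, 483, 946 and 480 CPM in MG and 370, 345, 603 and 330 CPM in INH. Mitochondrial transcripts were not lowest in HF1 in AST, ODC or MG, and AST immediate early genes were lowest in HF2 (133, 99.6, 87.8 and 70.4 CPM). MF1 stood apart in another list, 7 erythroid markers, looked at after their values were seen. They summed to 16460 CPM in OPC of MF1 and 476 to 552 CPM in OPC of the others. In AST they summed to 2635 CPM in MF1 and 579 to 651 CPM in the others, but in COP they were highest in MF2 (4209 CPM). The part of choroid plexus, oligodendrocyte or erythroid transcripts in the result was not tested.

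**Figure D5:**
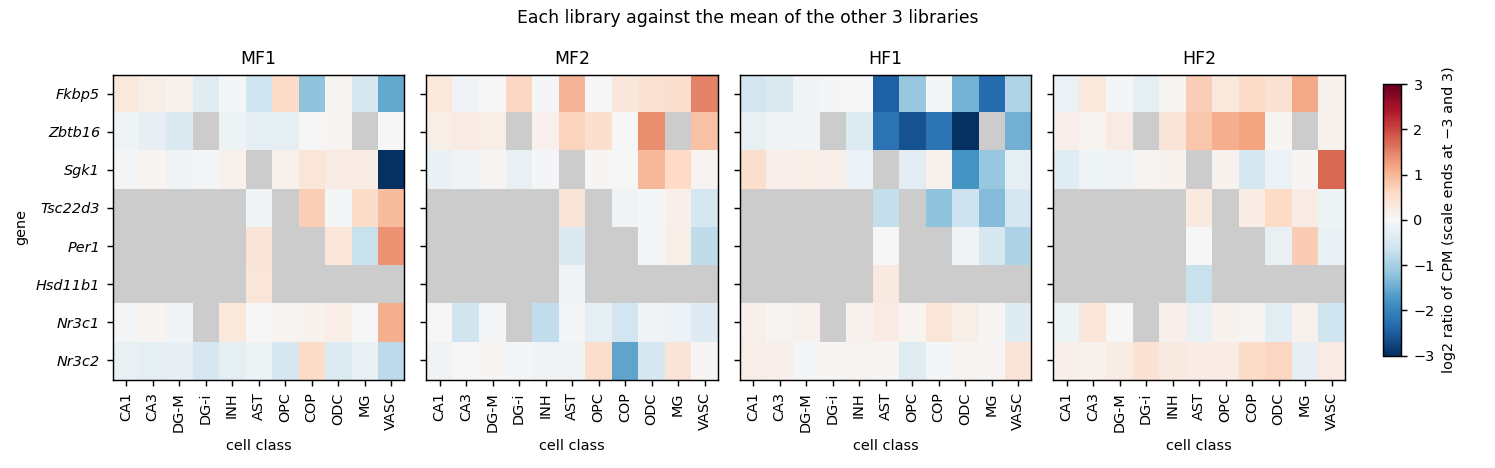
Level of each member in each library over the mean of the other 3 (log2, colour scale clipped at 3 either way) by class, with cells in grey where the mean is under 20 CPM. HF1 is low for Fkbp5 and Zbtb16 in AST, OPC and ODC, for Fkbp5, Sgk1 and Tsc22d3 in MG, for Sgk1 in ODC, for Zbtb16 in COP and VASC and for Tsc22d3 in COP, and it is nearer the others in neurons.

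The same library was low in chromatin over the members in several glial classes. Among regions of at least 10 CPM, HF1 was lowest by 1.5-fold or more in 7 of 27 member regions in MG (3.096% of all regions), 5 of 27 in ODC (2.552%), 4 of 28 in AST (2.239%) and 2 of 24 in OPC (2.924%), and in 0 of 30 in CA1 (0.5309%) and 0 of 25 in DG-M (0.1809%). COP had 1 of 20 (3.343%) and VASC 1 of 27 (6.988%), and among neurons DG-i had 1 of 21 (1.356%). The Zbtb16 region at chr9:48736017-48736790 had 28.9, 31.8, 6.62 and 35.3 CPM in OPC, 21.9, 22.1, 10.8 and 24.3 CPM in AST, and 36.8, 35.2, 36.8 and 34.4 CPM in CA1. The neighbouring region at chr9:48737232-48738112 had 55.8, 35.5, 15.6 and 37.3 CPM in OPC and 32.1, 37.0, 10.6 and 31.9 CPM in ODC. Both Fkbp5 element regions were lowest in HF1 in MG, the upstream one at 79.7, 77.0, 48.3 and 78.9 CPM.

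Between the diets, 1 member region of the 101 tested in EXC was called (0.00198% of all regions were), and none in all nuclei, INH, AST, OPC, ODC or MG, where 0.0162%, 0.0%, 0.0%, 0.0%, 0.00248% and 0.00756% of all regions were called. The region called was chr8:77187381-77188264, which overlaps coding sequence of Nr3c2, 288380 bp downstream of the gene's start. In EXC it had 9.22, 8.11, 3.22 and 5.02 CPM, from 211, 195, 76 and 123 counts, so both HF libraries lay below both MF libraries (HF minus MF -1.06 ± 0.21 on the log2 scale, edgeR FDR 0.042). DG-M had 9.11, 10.2, 4.08 and 4.44 CPM there, and no count was seen in MG. Nr3c2 RNA in EXC differed by 0.27 ± 0.27 on the log2 scale (edgeR FDR 1.0), in the other direction. The region was not called when all merged regions were tested (edgeR FDR 0.88), without MF1 (-0.97 ± 0.24, edgeR FDR 0.31) or without HF1 (-0.80 ± 0.27, edgeR FDR 1.0).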

How the data were processed

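The authors sequenced 10x multiome libraries and aligned and counted the reads with Cell Ranger ARC 2.0.1 against mm10. The deposited matrices hold raw counts, UMIs per gene and ATAC counts per peak called in each library. Nuclei were kept with at least 500 and at most 7000 genes, less than 2% of UMIs from mitochondria, and ATAC counts between 1000 and 70000. The nucleosome signal and start-site enrichment filters of the study were not applied. Nuclei were clustered with Scanpy 1.11.5 (Leiden, resolution 0.8, and 0.5 within EXC) without the members and pathway genes, and clusters were named from marker lists. Clusters scoring as mixed (1215 nuclei), without a name (1532), Cajal-Retzius (138) or cycling (89) entered no comparison. Nuclei over a Scrublet score of 0.05 (14.3% to 16.3% per library) were kept in the main tests and left out in an alternative. Counts were summed per class and library and tested with edgeR 4.0.16 (quasi-likelihood, TMM, filterByExpr, R 4.3.3), with the library as a block between classes, and Benjamini-Hochberg adjustment over all genes or regions. Peaks were merged over libraries. The tests were first run on simulated data. Alternatives were DESeq2 1.42.0, RLE factors, no filter, no fold minimum, other clusterings, doublets left out, a replicate block, single libraries left out and a Wilcoxon test over nuclei. The members, lists and rules were chosen with earlier results of these data known. Genes named were the 8 members, the 3 genes most like each, and of each pathway list the 2 with the largest called difference of the highest from the next class; regions named were start regions, those with the element and those called between diets. The HF1 pattern, Man1a, the choroid plexus list, the further Hsd11b1 region and the other regions tied as start were chosen after their values were seen. So was the erythroid list. Promoter windows are from RefSeq (GRCm38); 6 members matched by symbol, and the sequences of the other 2 were not used here. A gene that the rule for pathway genes would name is not reported here.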

Additional observations from a re-analysis of the deposited data

How the results depend on the processing

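The count of calls between diets, over tests of a member in a class, was 0. It became 1 with no low-count filter (Zbtb16 in ODC) and 2 with the replicate block (Sgk1 and Zbtb16 in ODC, where 0.0849% of all genes were called). It was 5 by a Wilcoxon test over nuclei, which are not replicates. Those calls were Fkbp5 in all nuclei, Nr3c2 in CA1, Sgk1 in ODC, and Zbtb16 in AST and ODC. Without single libraries it was 0 to 7, 7 being without HF2, where every call was of Fkbp5, Zbtb16 or Sgk1. A gene could thus count more than once. The count of calls stayed 0 under the other alternatives. The replicate numbers share only a number in the labels, with 2 pairs, and the deviations of replicate 1 correlated between the diets with r = 0.571 in all nuclei, 0.304 in ODC and 0.036 in MG.

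No diet change of a member was called, and leaving out single libraries turned the sign of several: Fkbp5 in all nuclei (-0.66 to 0.26) and MG (-1.99 to 0.74), Sgk1 in all nuclei (-0.070 to 0.026), Per1 in AST (-0.19 to 0.31), Tsc22d3 in all nuclei (-0.17 to 0.33) and ODC (-0.50 to 0.57), Zbtb16 in all nuclei (-0.44 to 0.25), and Hsd11b1 in all nuclei (-0.15 to 0.58) and AST (-0.51 to 0.061). Sgk1 in COP was 0.055 with doublets left out. Between classes, Sgk1 in COP over CA3 was 0.018 with DESeq2, 0.023 with RLE normalization, 0.28 when scaled to total UMIs only, which was chosen after seeing the data, 0.047 with doublets left out, 0.30 at higher resolution and -0.11 to 0.13 without single libraries. Per1 in AST over ODC was -0.070 to 0.080 without single libraries, which also gave 18 to 28 called pairs for Per1. Zbtb16 in VASC over AST was 0.11 when scaled to total UMIs only and 0.14 at higher resolution. TMM factors of the classes averaged -0.27 (CA1) to 0.34 (MG) on the log2 scale. None of these orders was called.

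Member regions called between diets numbered 0 with all merged regions, 2 with the replicate block and 0 to 3 without single libraries (0 without MF1 or HF1, 3 without MF2 or HF2). Pairs called for the start region of Tsc22d3 fell from 11 to 5 with RLE normalization, 6 with all merged regions and 2 to 6 without single libraries. Over the other regions tied as start, taken up after the values were seen, they numbered 30 and 24 for Tsc22d3 against 11, and 18 and 45 for Nr3c1 against 40. The receptor ratio of COP was -0.84 with doublets left out. In MG against AST, Nr3c1 lost its call also with no low-count filter and no library term. Hspa4 lost its call without MF1 or HF1, and Hspa8 without MF1, MF2 or HF2, with no filter and with no library term. Of the values recomputed under an alternative, 440 of single genes or regions kept their direction and side of the threshold, or moved by less than the spread. Another 212, mostly counts judged by their fold difference from the main count, stayed within the limit set. Of the rest of the single genes or regions, 26 turned sign, 14 lost a call, 2 gained one and 9 moved, and 22 others moved. Counts were low for Per1 and, outside AST, for Hsd11b1, and VASC had few nuclei, which limits what those values can show.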

Other observations

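In nuclei that carried Cajal-Retzius markers (138 nuclei, 22 to 53 per library), Nr3c2 was at 284, 579, 417 and 294 CPM and Nr3c1 at 116, 125, 61.2 and 144 CPM. With likely doublets left out, 28 of the 33 nuclei in MF1 remained and log2 of Nr3c2 over Nr3c1 moved there from 1.29 to -2.58. Zbtb16 was at 239, 227, 111 and 301 CPM there. In nuclei that carried cycling markers (89 nuclei, 15 to 34 per library), Nr3c2 was at 420, 837, 583 and 668 CPM and Zbtb16 at 82.6, 165, 39.2 and 231 CPM. Neither group was compared with the 11 classes, and 15 nuclei in a library is below the minimum of 20 used for a class.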
